A study of Homo sapiens with 4 samples.

Results

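Intestinal lineage transcription factors are the DNA-binding proteins that set the identity of the intestinal epithelium and divide its cells between absorptive and secretory fates. The genes described here are the 9 named factors CDX1, CDX2, HNF4A, GATA6, KLF4, KLF5, ATOH1, HES1 and SOX9, given as a list of names with no threshold on a value, out of 19729 genes with a value in every library. RNA-Seq was done on HT-29 cells, an established human colorectal cancer line that the labels call MSS, BRAF-V600E and APC-mutant, and whose APC protein is truncated. The cells carried a lentiviral, doxycycline (DOX)-inducible short hairpin RNA, directed either against APC (APC shRNA) or against no transcript (NonS), and were used 3 to 5 passages after transduction. Cells of both groups, not only those with the APC shRNA, received 500 ng/ml DOX for 72 h, and each group had biological duplicates, replicates I and II, which gave 4 libraries in all. Both hairpins were used in stably transduced cells of 1 line, so the p-values given below measure the spread between repeats of the experiment in that line.

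In the intestine, CDX1 and CDX2 are homeobox factors that specify intestinal identity along the gut, and HNF4A and GATA6 are factors that keep enterocyte genes active. KLF4 is known from post-mitotic surface and goblet cells, whereas its relative KLF5 is known from dividing crypt cells. ATOH1 commits a progenitor to the secretory lineage, and HES1, which Notch signalling switches on, represses ATOH1 and so favours the absorptive fate. SOX9 is a factor of crypt base and progenitor cells. Canonical Wnt signalling, which APC restrains through the breakdown of β-catenin, acts on crypt cells through TCF/LEF factors.

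The deposited values are whole numbers on a scale that is not stated. They varied less between duplicates than read counts would, and multiplied by the length of the longest transcript in kb they summed to between 980841 and 984873 per library. They were therefore treated as values per length and depth, which can be compared between genes, and not as counts. This scale is inferred from the values, and the sums rest on the transcript length chosen, so an order of levels between genes holds only as far as that inference. The number of reads behind them is unknown, and rounding limits the precision of low values. The values of a library summed to between 398338 and 413595. APC itself had the value 3 in the first NonS library, and the 3 other libraries listed it at 0. The groups overlapped at 0, so these values could not serve as a check of the silencing. The paper reports that the hairpin lowered APC mRNA and protein in HT-29 cells. Of 10 colorectal epithelium markers, 10 were above 0, led by KRT18 (1550 and 1796 in NonS, 2061 and 2083 in APC shRNA) and KRT8 (1202 and 1531 in NonS, 1534 and 1482 in APC shRNA). All 7 fibroblast and all 4 endothelial markers were listed at 0 in every library. The immune markers PTPRC, CD3E and MS4A1 were also at 0, CD68 was at 5 and 6 in NonS, against 3 and 3 in APC shRNA, and CD14 was at 3 and 4 and at 1 and 2.

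Sequence just before the transcription start was available from RefSeq (GRCh38.p14) for 7 of the 9 factors. In the 250 bases before each start, both strands were searched for the TCF/LEF letters CTTTGAT, the letters TGGGAA bound by the Notch effector RBPJ, and the CDX letters TTTATG, which do not overlap one another. The 2 genes with a match form the switch between secretory and absorptive fate and are shown for that reason, with each match in capitals. The third sequence is that of KLF5, shown because it was the one factor that passed the test between the groups, and it held none of the 3 motifs.
ATOH1, chr4:93828575-93828641, plus strand: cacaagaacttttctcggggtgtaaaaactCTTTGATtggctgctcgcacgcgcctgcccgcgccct
HES1, chr3:194136034-194136113, plus strand: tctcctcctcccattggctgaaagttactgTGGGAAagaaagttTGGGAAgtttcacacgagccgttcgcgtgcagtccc
KLF5, first start, chr13:73054726-73054975, plus strand: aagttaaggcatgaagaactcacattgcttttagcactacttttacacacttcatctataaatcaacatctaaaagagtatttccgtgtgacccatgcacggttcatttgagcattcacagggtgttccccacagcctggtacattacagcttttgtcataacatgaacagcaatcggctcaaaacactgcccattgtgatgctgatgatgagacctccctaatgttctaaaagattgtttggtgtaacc

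The TCF/LEF match of ATOH1 began 148 bases before the start, and such a match was found in 2.26% of 35116 promoters of the same length. The RBPJ matches of HES1 began 84 and 70 bases before its start, and 20.8% of all promoters held at least 1 match to these 6 letters. The CDX letters were found in 9.64% of promoters and in none of those of the factors. These are matches of letters and no measure of binding.

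In NonS cells the order of the levels was KLF5, SOX9, HES1, HNF4A, GATA6, ATOH1, KLF4, CDX1 and CDX2. KLF5 had a mean value of 94 ± 8.49 (SD, n = 2), above that of 97.2% of all genes. SOX9 at 34 ± 0 and HES1 at 27 ± 0 (SD, n = 2) stood above 90.8% and 88.1% of all genes. Neighbours in this order did not overlap between their duplicates, except ATOH1 (6 and 7) and KLF4 (4 and 7). The level of CDX1 was above that of 47.6% of all genes, and CDX2 was listed at 0 in both NonS libraries. After APC silencing SOX9 (45 and 59) reached the range of KLF5 (49 and 52), and HNF4A (13 and 11) that of GATA6 (9 and 12), and the duplicates of these pairs overlapped.

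The comparison between APC shRNA and NonS asks which factors differ once the truncated APC is silenced. The test took in genes whose mean over the 4 libraries was at least 10, which were 5376 of all genes and 4 of the 9 factors (HNF4A, KLF5, HES1 and SOX9). A gene was called at an adjusted p under 0.05 (limma on log2(value + 1), Benjamini-Hochberg adjustment over all genes tested). KLF5 fell, and HNF4A, HES1 and SOX9 did not pass. Thus 1 of the 4 factors was called lower, where 3.70% of all genes tested were lower, and 0 of the 4 were called higher, where 4.33% of all genes tested were higher. At an unadjusted p under 0.05 there were 2 factors lower and 1 factor higher in limma, where 15.8% of all genes tested were lower and 19.8% higher at that level. In 3 of the 4 tested factors both APC shRNA libraries lay below both NonS libraries and in 1 they lay above, a separation found in 27.5% and 33.0% of all genes tested. Of the 5 factors with a lower mean, CDX1 and ATOH1 lay below and CDX2 lay above without overlap, against 14.3% and 20.8% of the 6410 genes with a mean from 1 to under 10. A lower level in fewer cells and a lower level in every cell cannot be told apart in these bulk samples.

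KLF5 (ENSG00000102554, chr13:73054976-73077542, plus strand), the Krüppel-like factor of dividing crypt cells, had NonS values of 100 and 88 and APC shRNA values of 49 and 52 (replicates I and II of each). Both APC shRNA values were well below both NonS values. The mean after APC silencing was 50.5 ± 2.12 (SD, n = 2), 0.537 times that in NonS. On the log2(value + 1) scale the difference was -0.88 (standard error 0.09, 95% interval -1.17 to -0.59, adjusted p = 0.0460 in limma), and 3.83% of the genes tested had a difference as low or lower. The direction stayed with each library left out in turn (-0.97 to -0.79), but the call was lost each time, with an adjusted p between 0.181 and 0.211 in limma. Leaving out any 1 library left 0 calls in the whole table, with between 1119 and 1330 genes at an unadjusted p under 0.05.

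KLF4 (ENSG00000136826, chr9:107484852-107490482, minus strand), its relative of differentiated cells, had NonS values of 4 and 7 and APC shRNA values of 3 and 7 (replicates I and II of each). The groups overlapped almost fully, and in both groups replicate II was the higher one. Its mean of 5.25 over all libraries was too low for the test, and with 2 libraries in each group an exact two-sided permutation test cannot give a p under 0.333. A chosen list of 13 other KLF genes included 3 listed at 0 in every library and 5 that were tested. Of the 5, 0 were called higher and 0 lower in limma (0 higher and 1 lower at an unadjusted p under 0.05, beside 19.8% and 15.8% of all genes tested). The highest of these were KLF13, at 25 and 27 in NonS, against 17 and 15 in APC shRNA (difference -0.67, standard error 0.09, adjusted p = 0.0534 in limma), and KLF6, at 17 and 18 and at 15 and 22. KLF13 did not overlap between the groups, while the APC shRNA values of KLF6 spanned both of its NonS values. The median difference of the 5 tested KLF genes was -0.18, beside 0.03 over all genes tested.

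CDX1 (ENSG00000113722, chr5:150166795-150184558, plus strand) was at 2 in both NonS libraries and listed at 0 in both APC shRNA libraries. CDX2 (ENSG00000165556, chr13:27962137-27971139, minus strand) had the opposite pattern, with values of 2 and 4 in the APC shRNA libraries (I and II) and 0 in each NonS library. So each of the paired homeobox factors was listed above 0 in one group only, CDX1 in NonS and CDX2 after APC silencing. These values are close to the lowest that whole numbers can show, and a rounded 0 does not show absence. No fold is given against a group listed at 0, and neither gene met the minimum for the test. The pattern of CDX1 (at least 2 in both NonS and 0 in both APC shRNA libraries) held for 4 of these 6410 genes or 0.0624%, and that of CDX2, in the other direction, for 20 or 0.312%. These thresholds were set after the values were seen. The other genes with the pattern of CDX1 were PDZD3, GPA33 and LGALS2, and GPA33 encodes a surface antigen of intestinal epithelium. The supplement of the paper lists CDX1, PDZD3, GPA33 and LGALS2 among the genes lowered by APC silencing. PROX1, a homeobox factor of the list of other intestinal factors, shared the pattern of CDX2 at 0 and 0 and at 3 and 2.

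Among the genes tested, those whose centred log2(value + 1) lay closest to CDX1 over the 4 libraries were UGT1A8 (distance 0.157), IHH (0.193) and HK2 (0.196). The differences of CDX1 and CDX2 rest on the pseudocount of 1, being -4.39 and 4.88 with 0.1 and -0.49 and 0.67 with 5. The choice of nearest genes rests on it as well, and no other pseudocount was tried for it. UGT1A8, a glucuronosyltransferase of the gut, was at 21 and 23 in NonS, against 6 and 6 in APC shRNA, but the UGT1A genes share exons, so its reads could be split. IHH, the hedgehog ligand of differentiated colon epithelium, was at 17 and 17 and at 6 and 5, and HK2, a hexokinase, at 16 and 15 and at 5 and 4. Closest to CDX2 were PTP4A3 (distance 0.168), PLPP1 (0.228) and MDK (0.267). PTP4A3, a phosphatase, was at 5 and 6 in NonS, against 19 and 33 in APC shRNA. PLPP1, a lipid phosphatase, was at 9 and 10 and at 26 and 45, and MDK, a growth factor, at 28 and 35 and at 89 and 142. In each, as in CDX2, APC shRNA replicate II was the higher one, an order that the choice by distance favours.

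HNF4A (ENSG00000101076, chr20:44355700-44434596, plus strand), the nuclear receptor of enterocytes, had NonS values of 19 and 17 and APC shRNA values of 13 and 11 (replicates I and II of each). The groups did not overlap. Its mean went from 18 ± 1.41 to 12 ± 1.41 (SD, n = 2), a ratio of 0.667. The log2 difference of -0.55 (standard error 0.12, 95% interval -0.92 to -0.18) did not pass, with an adjusted p of 0.0829 in limma, and 10.7% of the genes tested had a difference as low or lower. Only 2 of 7403 stretches of 50 bases of its transcripts also occur in another gene, PIAS2.

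GATA6 (ENSG00000141448, chr18:22169443-22202528, plus strand), the zinc finger factor of endoderm, had NonS values of 8 and 9 and APC shRNA values of 9 and 12 (replicates I and II of each). The groups met at 9. Its mean of 9.5 was just under the minimum for the test. Exons of GATA6-AS1 and AC091588.3 on the opposite strand share 240 and 321 bp with it, and the strand setting of the authors' counting is not given in the sources used here, so reads from those stretches, out of its 3945 exonic bp, cannot be told apart from theirs. For none of the other 8 factors did an exon of another gene overlap.

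The list of 25 other intestinal transcription factors gives the setting of these values. GATA4 and GATA5, relatives of GATA6, were among those listed at 0 in every library. Of the 10 tested, ASCL2 and FOXA3 rose, PPARG fell and 7 did not pass, where 4.33% of all genes tested were called higher and 3.70% lower. At an unadjusted p under 0.05 in limma 3 were higher and 2 lower, beside 19.8% and 15.8% of all genes tested. ASCL2, a bHLH factor of intestinal stem cells, was at 4 and 4 in NonS, against 42 and 66 in APC shRNA (log2 difference 3.42, standard error 0.26, adjusted p = 0.0423 in limma). It met the minimum mean of 10 only through its APC shRNA values, as its NonS mean was 4. FOXA3, a forkhead factor, went from 14 and 13 to 24 and 24 (0.79, standard error 0.06, adjusted p = 0.0423 in limma). PPARG, a nuclear receptor of differentiated colon cells, went from 34 and 36 to 19 and 19 (-0.85, standard error 0.06, adjusted p = 0.0423 in limma). The factors with the highest means were HOXB9, at 104 and 98 in NonS, against 130 and 122 in APC shRNA, and EHF, at 60 and 48 and at 52 and 26, and neither passed (adjusted p = 0.0886 and 0.411 in limma). HNF4G, the close relative of HNF4A, was named after its values were seen. It was at 10 and 6 in NonS, against 3 and 1 in APC shRNA, without overlap and too low for the test. The median difference of the 10 tested was 0.18.

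**Figure D1:**
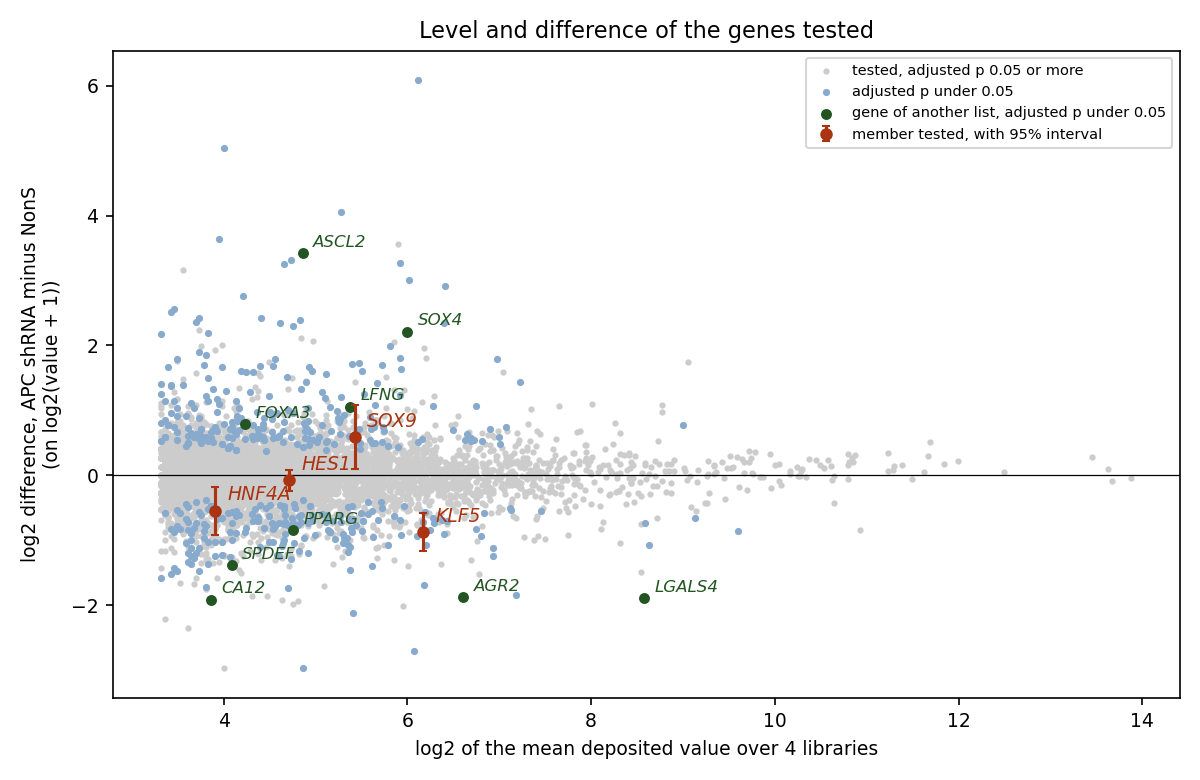
Log2 difference between APC shRNA and NonS on log2(value + 1) (vertical axis) against the log2 of the mean deposited value over the 4 libraries (horizontal axis) for the 5376 genes tested, with the 4 tested lineage factors and their 95% intervals in red and the called genes of the other lists in green. KLF5 lies at -0.88 and HNF4A at -0.55, SOX9 lies at 0.59, HES1 is near 0, and ASCL2 at 3.42 is far above all 4.

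ATOH1 (ENSG00000172238, chr4:93828753-93830964, plus strand, 1 exon), the bHLH factor that commits cells to the secretory lineage, had NonS values of 6 and 7 and APC shRNA values of 3 and 3 (replicates I and II of each). All values were low and the groups did not overlap. The mean in APC shRNA was 0.462 times that in NonS, a log2 ratio of -1.12, and the gene was too low for the test. When all genes above 0 in some library were tested, its difference of -0.90 had an adjusted p of 0.0394 in limma. That setting called 952 genes higher and 515 lower, and the APC shRNA duplicates of ATOH1 were equal whole numbers, which narrows their spread. With the same genes tested, CDX1 had an adjusted p of 0.000106 in limma, but its duplicates were equal in both groups, so rounding left no spread to test it by. CDX2 did not pass there (adjusted p = 0.0947 in limma).

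HES1 (ENSG00000114315, chr3:194136145-194138732, plus strand), the Notch-driven repressor of ATOH1, had NonS values of 27 and 27 and APC shRNA values of 25 and 26 (replicates I and II of each). The APC shRNA values lay below the NonS values, but by at most 2 units. The log2 difference was -0.08 (standard error 0.05, 95% interval -0.24 to 0.08, adjusted p = 0.349 in limma), and 39.0% of the genes tested had a difference as low or lower. The interval covers 0.

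The 16 secretory lineage factors beside ATOH1 included genes called in either direction. NEUROD1, a factor of enteroendocrine cells, was among those listed at 0 in every library. Of the 5 tested, SPDEF fell, SOX4 rose and 3 did not pass, where 4.33% of all genes tested were called higher and 3.70% lower. At an unadjusted p under 0.05 in limma 2 were higher and 2 lower, beside 19.8% and 15.8% of all genes tested. SPDEF, the ETS factor of goblet cell maturation, went from 24 and 26 in NonS to 10 and 8 after APC silencing (log2 difference -1.39, standard error 0.13, adjusted p = 0.0452 in limma). Its APC shRNA mean was 9, so SPDEF met the minimum mean of 10 only through its NonS values. SOX4, which is known from progenitors and tuft cells, went from 25 and 19 to 89 and 123 (2.21, standard error 0.24, adjusted p = 0.0465 in limma). XBP1, a factor of secretory cells with the highest mean of the list, was at 117 and 130 and at 108 and 153, and its APC shRNA values spanned both NonS values. Named after their values were seen, NEUROG3, the factor of enteroendocrine progenitors, was at 7 and 5 and at 3 and 1, and CREB3L1, a factor of secretory cells, was at 41 and 37 and at 22 and 18 (adjusted p = 0.0545 in limma). CREB3L4, also named later, lay the other way without overlap, at 12 and 11 and at 15 and 17 (adjusted p = 0.0840 in limma).

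The Notch pathway, which acts on HES1, was read from 36 genes. Of these, 10 were listed at 0 in every library and 11 were tested, of which LFNG rose and 0 were called lower in limma (5 were higher and 2 lower at an unadjusted p under 0.05, beside 19.8% and 15.8% of all genes tested). LFNG, a glycosyltransferase that modifies Notch receptors, went from 26 and 27 in NonS to 51 and 62 after APC silencing (log2 difference 1.06, standard error 0.12, adjusted p = 0.0465 in limma). The genes with the highest means were the γ-secretase subunits APH1A, at 72 and 86 and at 82 and 100, and PSENEN, at 44 and 52 and at 66 and 71, and neither passed (adjusted p = 0.425 and 0.0883 in limma). Named after its values were seen, the receptor NOTCH1 was at 9 and 8 and at 14 and 12, without overlap (adjusted p = 0.0809 in limma). Also named later, HES6 lay the other way, at 34 and 33 and at 27 and 22 (adjusted p = 0.115 in limma). So did NRARP, at 12 and 10 and at 8 and 6, which was too low for the test. Of the 36 genes, 8 lay above and 5 below without overlap. The ligands DLL1, DLL4, JAG1 and JAG2 were each between 1 and 4 in every library. The median difference of the 11 tested genes was 0.38, beside 0.03 over all genes.

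**Figure D2:**
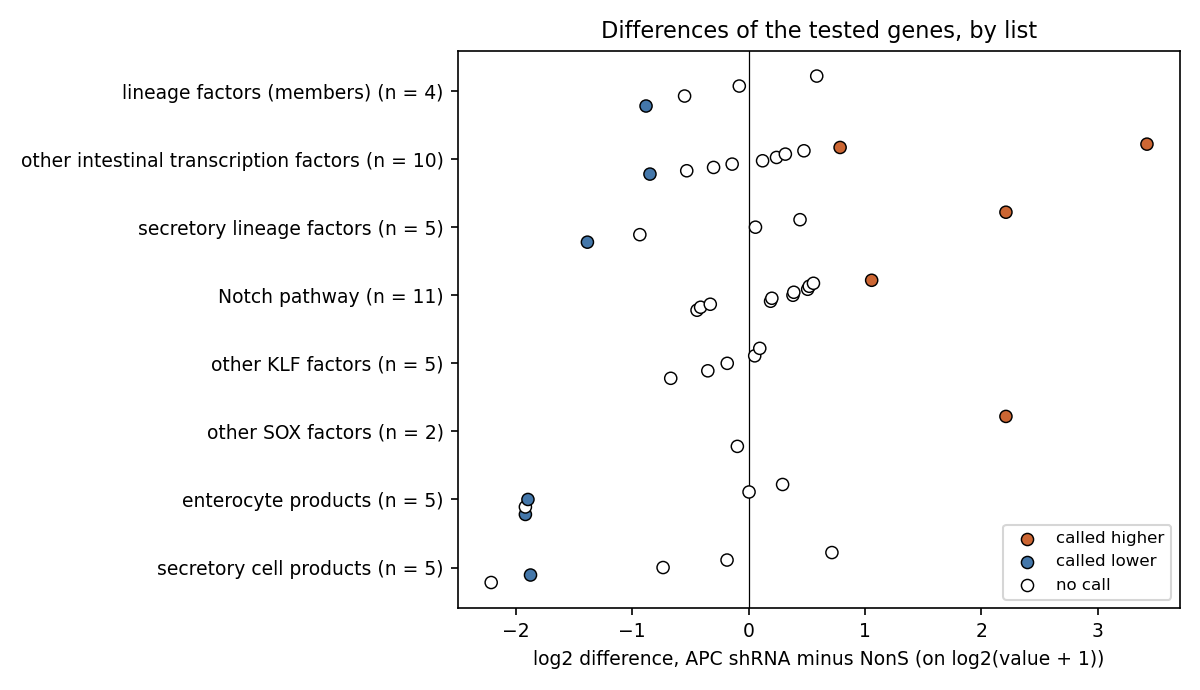
Log2 difference between APC shRNA and NonS on log2(value + 1) (horizontal axis) of each tested gene, with one row for the lineage factors and one for each other list, and filled points for genes with an adjusted p under 0.05 in limma. KLF5 is the one filled point among the 4 factors, and the lists hold filled points on both sides of 0, from -1.92 for CA12 to 3.42 for ASCL2.

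SOX9 (ENSG00000125398, chr17:72121020-72126420, plus strand), the HMG-box factor of crypt base cells, had NonS values of 34 and 34 and APC shRNA values of 45 and 59 (replicates I and II of each). Both APC shRNA values were above the NonS values, and they lay farther apart from each other than the NonS duplicates. The mean in APC shRNA was 52 ± 9.9 (SD, n = 2), 1.53 times that in NonS. The log2 difference of 0.59 (standard error 0.16, 95% interval 0.09 to 1.08) did not pass, with an adjusted p of 0.112 in limma. Without APC shRNA replicate II it was 0.39, and without APC shRNA replicate I it was 0.78. Of the genes tested, 92.0% had a difference as low as or lower than that of SOX9.

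Of a chosen list of 14 other SOX genes, 10 were listed at 0 in every library and 2 were tested. SOX4, given above, rose, and SOX13 was at 13 and 15 in NonS, against 13 and 13 in APC shRNA (adjusted p = 0.495 in limma). SOX12, also named later, was at 5 and 5 and at 8 and 8, too low for the test. The summed value of the list went from 43 and 39 in NonS to 111 and 145 after APC silencing, and SOX4 held 89 of the 111 and 123 of the 145.

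Products of the differentiated cells that these factors direct were read from 2 further lists. Of 32 enterocyte products, 17 were listed at 0 in every library, among them SI, ALPI, FABP2 and SLC26A3. Of the 5 tested, LGALS4 and CA12 fell and 3 did not pass, where 4.33% of all genes tested were called higher and 3.70% lower. At an unadjusted p under 0.05 in limma 1 was higher and 3 lower, beside 19.8% and 15.8% of all genes tested. The higher one was VIL1, at 29 and 31 in NonS, against 39 and 35 in APC shRNA (adjusted p = 0.123 in limma). Lower at that level, beside the called genes, was PHGR1, at 39 and 39 and at 15 and 6 (adjusted p = 0.102 in limma). LGALS4, a galectin of the enterocyte surface, went from 557 and 646 in NonS to 175 and 147 after APC silencing (log2 difference -1.90, standard error 0.14, adjusted p = 0.0423 in limma). CA12, a carbonic anhydrase, went from 23 and 24 to 6 and 5 (-1.92, standard error 0.11, adjusted p = 0.0423 in limma). With an APC shRNA mean of 5.5, CA12 met the minimum mean of 10 only through its NonS values. KRT20, the keratin of surface cells, was at 180 and 266 in NonS, against 195 and 247 in APC shRNA, with both APC shRNA values inside the NonS range. The median of the 5 was -1.90, which is the value of LGALS4.

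Of the 21 genes with values on the list of secretory cell products, which also holds the transcription factor ATOH8, 10 were listed at 0 in every library, among them CLCA1, ZG16 and CHGA. Of the 5 tested, AGR2 fell, 4 did not pass and 0 were called higher in limma (0 higher and 3 lower at an unadjusted p under 0.05, beside 19.8% and 15.8% of all genes tested). AGR2, a disulfide isomerase of goblet cells, went from 167 and 140 in NonS to 48 and 35 after APC silencing (log2 difference -1.87, standard error 0.21, adjusted p = 0.0465 in limma). LYZ, lysozyme, had the highest mean of the list, at 749 and 906 and at 614 and 855, and the groups overlapped. Named after their values were seen, SPINK4, a goblet cell peptide, was at 22 and 13 and at 4 and 2 (adjusted p = 0.0709 in limma), and REG4, a lectin of enteroendocrine and goblet cells, was at 9 and 9 and at 2 and 1. TFF3, also named later, was at 19 and 17 and at 12 and 9 (adjusted p = 0.0927 in limma). In the other direction, SPINK1, a trypsin inhibitor, was at 15 and 24 and at 29 and 35 (adjusted p = 0.190 in limma). SCG5, a chaperone of neuroendocrine cells, was at 1 and 1 and at 2 and 4. On the whole list 7 genes lay below and 3 above without overlap.

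**Figure D3:**
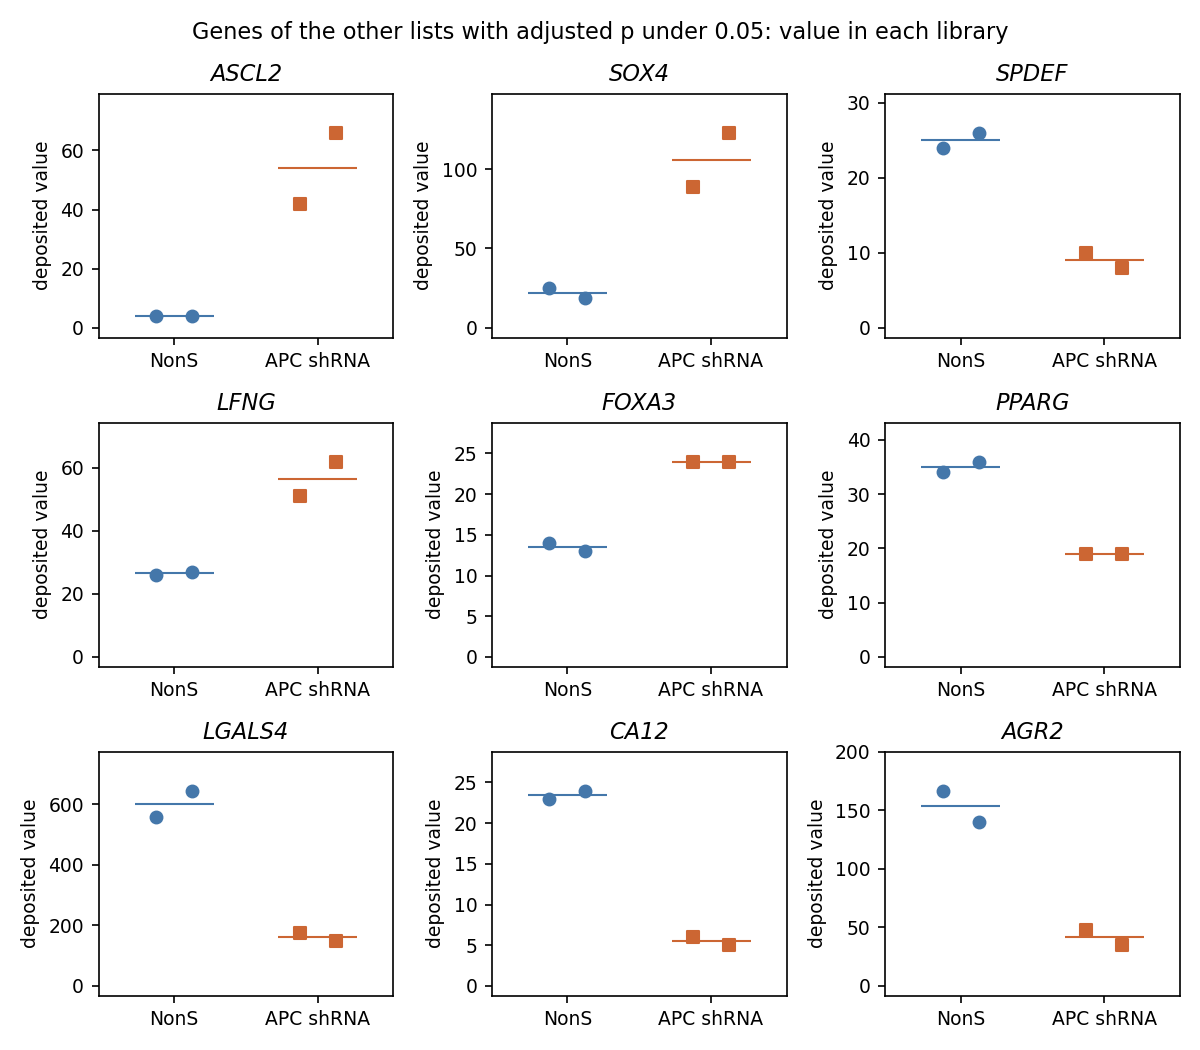
Deposited value (vertical axis, linear, one scale per panel) of the 9 genes of the other lists that were called in limma, in the 2 NonS libraries (circles) and the 2 APC shRNA libraries (squares), with a line at the mean of each group. ASCL2, SOX4, LFNG and FOXA3 are higher and SPDEF, PPARG, LGALS4, CA12 and AGR2 lower in each APC shRNA library than in either NonS library.

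Over the 7 lists together, 42 of the 155 genes with values were tested, and the median difference was 0.03, as over all genes tested. At an unadjusted p under 0.05 in limma 11 were higher and 13 lower, beside 19.8% and 15.8% of all genes tested. Of the 42, 4 were called higher and 5 lower in limma, where 4.33% and 3.70% of all genes tested were called. Each of these 9 calls was lost when any 1 library was left out. The immune markers CD68 and CD14 also had lower values in both APC shRNA libraries, as given above, and their part in these differences was not tested. The summed value of the 10 epithelial markers was 4359 and 5412 in NonS and 4747 and 4943 in APC shRNA, where the groups overlapped.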

How the data were processed

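HT-29 cells with an inducible APC shRNA or NonS shRNA were sequenced in duplicate. The authors trimmed the reads, mapped them with TopHat2 to human genome assembly 38 (the labels name hg19), counted them with htseq-count against GENCODE v29 and used DESeq2 1.4.1. They deposited 1 whole number per gene and library, which was treated as a score of unstated scale. Their table of fold changes and p-values was not used in the tests here. Columns with values of single libraries that were left unused numbered 0.

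Groups came from the sample labels. The planned log2(value + 1) comparison was fitted with limma 3.58.1 in R 4.3.3 (mean-variance trend, all 4 libraries, no covariate) on genes whose mean was at least 10. P-values were adjusted by Benjamini-Hochberg, and the script was tested on simulated data. Equal duplicates in both groups were kept, and limma offset their zero variances. Read depth is unknown, so no counting interval is given. Fold changes on this scale understate changes of low genes.

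The members and lists were chosen with earlier results of these data known. Named genes were all members, APC, of each list the called genes (at most 4 per direction) and the 2 with the highest mean, 2 markers per cell type, and the 3 genes nearest to CDX1 and CDX2. Other genes named were chosen after their values were seen. MUC2 was not analysed here. Gene positions and shared exons come from GENCODE v29 (GRCh38), promoters from RefSeq (GRCh38.p14). Alternatives covered scaling, pseudocount, filters, moderation, GC content, a replicate block, the threshold and each library left out.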

Additional observations from a re-analysis of the deposited data

How the results depend on the processing

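Over all genes tested, 233 were called higher and 199 lower. Median-of-ratios scaling gave 373 and 405. The counts were 343 and 369 with equal totals, 952 and 515 with every gene of a total of at least 1, 139 and 134 with at least 10 in every library, 368 and 352 with robust moderation, and 439 and 475 with a GC content correction. The scalings moved the median difference by -0.034 to -0.015. At an adjusted p under 0.01 in limma, 0 genes, 0 factors and 0 list genes were called in either direction, and 1912 genes had an unadjusted p under 0.05. Without any 1 of the libraries the counts of genes, factors and list genes called were 0 in both directions, from 0 to 0. Of the factors, 3 were called lower with every gene tested (KLF5, ATOH1 and CDX1). Of the list genes, 4 called higher and 5 lower, the lower count was 9 with median-of-ratios scaling, 8 with upper-quartile scaling, with equal totals and with robust moderation, 9 with GC content correction and 3 with at least 10 in every library. The higher count was 2 with a mean of at least 8, and with every gene tested the counts were 7 and 11.

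The replicate numbers were shared between the groups, and the labels do not say that a number marks a shared day. The difference between replicates II and I was correlated between the groups (0.724 across genes). With a replicate block 523 genes were called higher and 500 lower, 7 list genes higher, and of the factors HNF4A (adjusted p = 0.0474) but no longer KLF5 (0.0510) in limma. The block with GC content correction gave 1175 and 1291 genes, 12 and 14 list genes, 1 factor higher (SOX9, adjusted p = 0.0221) and 2 lower (HNF4A, 0.00677, and KLF5, 0.00430).

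KLF5 kept its call in 12 of the 18 alternatives with a test. Many settings leave the difference itself as it is. Over those run it was from -0.97 to -0.79 for KLF5, -0.66 to -0.44 for HNF4A, -0.12 to -0.05 for HES1 and 0.39 to 0.78 for SOX9. KLF4 changed sign in 2 of 18, both with 1 library left out. With a pseudocount of 0.1 or 5 the difference of CDX1 was -4.39 or -0.49 and that of CDX2 4.88 or 0.67, so their size rests on the pseudocount. The causes of these changes were not tested. Unknown depth and rounding limit CDX1, CDX2, KLF4 and ATOH1 most.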

Other observations

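Among the 20 low genes with the pattern of CDX2, with 0 in each NonS library and 2 or more in both APC shRNA libraries, the highest values after APC silencing were those of TGFB3, a TGF-β ligand, at 16 and 17. NGFR, the low-affinity neurotrophin receptor, was at 10 and 14, DPYSL3, a cytoskeletal regulator of neurons, at 7 and 12, and IL23A, a cytokine subunit, at 6 and 11. WNT6, a Wnt ligand, was at 3 and 5. These genes were chosen after their values were seen, and none was tested.

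HES4, a relative of HES1, had NonS values of 4 and 9 and APC shRNA values of 4 and 9 (replicates I and II of each), so its duplicates differed while the groups did not. KLF4 differed between duplicates in the same order. ATOH8, a bHLH relative of ATOH1, was at 1 and 1 in NonS, against 8 and 10 in APC shRNA, in the opposite direction to ATOH1, and was too low for the test.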
